A study of Mus musculus with 6 samples.

Results

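DES epithelial cluster 14 is a group of 67 epithelial cells in uteri of 12-month-old CD-1 mice that received diethylstilbestrol (DES), a synthetic estrogen, at 1 mg/kg/day as newborns. Its cells were the 67 cells that the deposited clustering of DES epithelial cells gave the number 14, and each had a column of counts. They made up 1.45% of the 4608 clustered DES epithelial cells with counts (exact 95% interval 1.13% to 1.84%), which fell into 16 clusters. The whole series held 48699 cells with counts, of which 16312 were of the DES library. The cluster is described against the 4541 cells of the other 15 DES clusters.

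The series compared uteri of mice given DES with those of mice given corn oil (CO) over the same neonatal period, all of the CD-1 strain and all 12 months old. Single cells were measured in 1 CO and 1 DES library, each from pooled uteri, and RNA was mapped in 2 sections of CO uteri and 2 of DES uteri, each from 1 mouse. The authors described a substantial tissue fold in the CO section and limited cluster identification in the DES section labelled sample B. They based most of their analyses on the other section of each group. Both sections labelled sample B are replicate 2 here, and the main tests gave them the same weight as replicate 1. Cells of a library could not be assigned to mice, and the 67 cells came from 1 library, so that no test between clusters was possible and levels carry counting error only. The DES clusters had been formed on these same counts, and cells in which Krt14 and Trp63 each exceeded 1 UMI (unique molecular identifier, which stands for 1 captured RNA molecule) had been set apart as basal cells beforehand.

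The epithelium of the mouse uterus forms a lumen and glands. Foxa2 encodes a forkhead transcription factor that marks the glands and is needed for their formation, and En2 encodes a homeobox transcription factor. Neonatal DES disturbs the development of the glands and can lead to uterine cancer in old mice. Olfm4 encodes a secreted glycoprotein of stem and secretory cells.

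The 67 cells held 2423959 UMIs, which was 1.48% of the UMIs of all clustered DES cells. The cells ranged from 9199 to 108521 UMIs with a median of 22664, the 9th highest median of the 16 clusters, and the other clustered cells had a median of 24683. The median mitochondrial share was 10.3% in cluster 14 and 11.6% in the other cells. Epithelial genes were at like levels in both. Epcam, an adhesion molecule of epithelia, was at 820 CPM (counts, here UMIs, per 1000000 of the group) in cluster 14 and at 806 CPM in the other cells, and both it and the keratin gene Krt18 had a UMI in all 67 cells. None of the 10 simple epithelial genes differed 2-fold. Of 180 barcodes shared by the CO and DES libraries, 1 was a cell of cluster 14, and the ratio of Foxa2 without that cell was 4.45, beside 4.48 with it.

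Foxa2 was highest in cluster 14 of the 16 DES clusters. Its level was 68.9 CPM (exact 95% Poisson interval 58.8 to 80.2), from 167 UMIs. Cluster 8 followed with 49.9 CPM (44.4 to 55.9) and cluster 5 with 37.2 CPM (33.3 to 41.4), and these intervals do not overlap. Against the other clustered DES cells together, at 15.4 CPM, the level was 4.48 times as high (3.81 to 5.24). The RNA was spread over the cluster, since 48 of 67 cells had a Foxa2 UMI and the richest cell held 8.98% of them. The level per cell ran from 0 to a median of 59.7 and a highest value of 195 CPM. After each cell was thinned to 3000 UMIs, which kept all 67 cells, 16.4% of cluster 14 cells had a Foxa2 UMI (exact 95% interval 8.49% to 27.5%). The share was 4.43% in the other clusters and 0.212% in DES mesothelial cells, which should lack the gene. Without thinning the shares were 71.6%, 27.1% and 1.12%. The mature gland genes Spink1, a trypsin inhibitor, and Prss29, an implantation serine protease, had no UMI in cluster 14 and none in the other DES clusters. For a gene without a UMI in cluster 14 the exact 95% Poisson interval reaches 1.52 CPM. The CO library held a cluster, number 13, with Foxa2 at 82.0 CPM, Spink1 at 17834 CPM and Prss29 at 51277 CPM. Foxa2 lies at chr2:148042877-148046969 on the minus strand of GRCm38 (GENCODE M21), and En2 at chr5:28165694-28172166 on the plus strand.

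En2 had like levels in several clusters. It was at 21.9 CPM (16.4 to 28.6) in cluster 14, at 20.6 CPM in cluster 5, 20.2 CPM in cluster 10, 19.9 CPM in cluster 15 and 18.1 CPM in cluster 9, and these intervals overlap. The ratio to the other clustered cells was 2.24 (1.67 to 2.95), and 1.89 without the cell that held most En2 UMIs. En2 had a UMI in 20 cells of cluster 14, and 19 of these also had a Foxa2 UMI. The pair was found together in 28.4% of cluster 14 cells (18.0% to 40.7%) and in 7.33% of the other cells (6.59% to 8.13%). After thinning, 1.49% of cluster 14 cells had an En2 UMI (0.0378% to 8.04%), beside 2.16% of the other cells and 0.159% of mesothelial cells, so that no difference in this share was detectable at that depth. The share in cluster 14, here 1 cell, was 5.97% with another random draw and 7.46% at 5000 UMIs. Without thinning 29.9% of cluster 14 cells and 18.1% of the other cells had one.

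**Figure D1:**
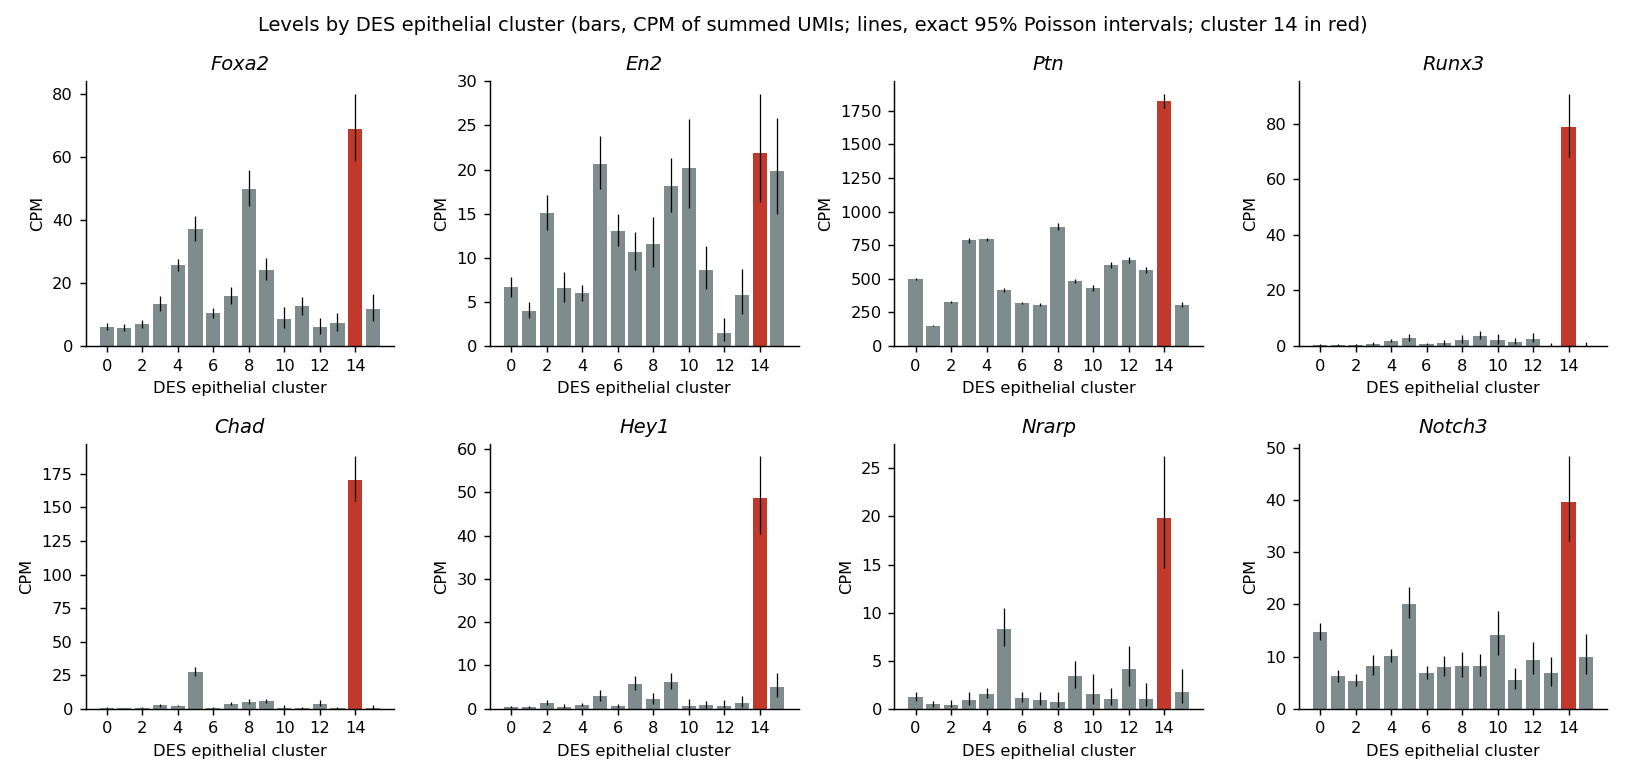
Levels of 8 genes in each of the 16 DES epithelial clusters, in CPM of the cluster's summed UMIs, with exact 95% Poisson intervals as lines and cluster 14 in red. Foxa2 stood at 68.9 CPM in cluster 14 and 49.9 CPM in cluster 8, while En2 had several clusters within its interval and the next clusters for Runx3, Chad and Hey1 had 3.75, 27.7 and 6.21 CPM.

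The level of Olfm4 in cluster 14, at 89.1 CPM, came from 14 cells, and 1 cell held 190 of the 216 UMIs. Without that cell the level was 11.1 CPM, 0.190 times that of the other cells, against a ratio of 1.53 with it. The other cells include cluster 5, at 685 CPM, and cluster 15, at 257 CPM. The median of the other 15 clusters was 9.87 CPM. The same cell, of 75107 UMIs, held 153 of the 181 UMIs of Ly6d and 69 of the 157 UMIs of Krt14.

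A total of 2924 genes had at least 50 CPM in cluster 14 or in the other clustered cells. Of these, 73 (2.5%) were 2-fold or more higher in cluster 14 and 106 (3.63%) were 2-fold or more lower. The 20 genes with the largest ratios, which ended with Foxa2 at 4.48 and left out Ncam1 at 4.46, are called the leading genes. Cluster 14 was the highest of the 16 clusters in 18 of them, Tnfaip2 being higher in cluster 15 and Krt5 in clusters 5 and 12. For Ly6d and Krt14 this rank rested on 1 cell. Without the richest cell they were at 11.9 and 37.5 CPM, below cluster 9 at 23.0 and 39.3 CPM. The smallest ratios ended with Thrsp at 0.103 and left out Barx2 at the same value. Since the clusters came from these counts, the ratios describe cluster 14 and test nothing.

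The largest ratio was that of Runx3, a transcription factor of the RUNX family known from T cells and from the epithelium of the gut. It was at 78.8 CPM (68.0 to 90.8) in cluster 14 and at 1.19 CPM in the other cells, a ratio of 66.0 (53.7 to 81.0), and the next cluster, number 9, had 3.75 CPM. Runx3 had a UMI in 41 of 67 cells (61.2%) and in 2.64% of the other cells, and cluster 14 held 49.7% of the Runx3 UMIs of all clustered DES cells. Its relative Runx1, chosen after its values were seen, was at 219 CPM against 55.4 CPM, a ratio of 3.96, and was also highest in cluster 14. DES lymphocytes had 218 CPM and DES myeloid cells 157 CPM of Runx3. Among 13 immune genes, Ptprc, the leukocyte phosphatase CD45, was at 20.6 CPM in cluster 14 and 4.20 CPM in the other cells, with a UMI in 25 cells, beside 812 CPM in DES lymphocytes. The summed level of the immune genes was 42.9 CPM in cluster 14 and 19.0 to 44.6 CPM in the other clusters, and 6 of the 13 were at 0 in cluster 14. Runx3 and Ptprc had UMIs in the same cell in 18 of 67 cells of cluster 14 (26.9%) and in 0.573% of the other cells. The immune genes at 0 included the T cell genes Cd3e, Cd3g and Trbc2, the B cell gene Cd79a and the cytotoxic cell gene Nkg7.

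The windows of sequence below are those before the start sites of Runx3 and of the leading genes that share a RUNX motif with it. RefSeq windows of 250 bases before a start on GRCm38.p6 were searched for the core of the RUNX motif (TGTGGT, or ACCACA on the other strand) and for that of RBPJ, the DNA-binding partner of Notch (TGGGAA, or TTCCCA). A window was at hand for 14 of the 20 leading genes. The RUNX letters were in 4 of these genes, Runx3, Stra6, Ltbp1 and Vpreb3, and in 15.9% of all genes with a window. The RBPJ letters were in 6 of the 14 and in 24.1% of all genes. A match describes the letters only, and gene counts do not tell which start was used. The windows are written 5′ to 3′ with matches to either motif in capitals.
Runx3, chr4:135120395-135120644, plus strand: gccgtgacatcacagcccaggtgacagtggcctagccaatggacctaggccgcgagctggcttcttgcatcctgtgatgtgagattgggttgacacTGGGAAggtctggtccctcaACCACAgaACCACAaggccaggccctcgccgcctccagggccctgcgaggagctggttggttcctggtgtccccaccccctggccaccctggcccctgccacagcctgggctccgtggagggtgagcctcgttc
Stra6, chr9:58128838-58129087, plus strand: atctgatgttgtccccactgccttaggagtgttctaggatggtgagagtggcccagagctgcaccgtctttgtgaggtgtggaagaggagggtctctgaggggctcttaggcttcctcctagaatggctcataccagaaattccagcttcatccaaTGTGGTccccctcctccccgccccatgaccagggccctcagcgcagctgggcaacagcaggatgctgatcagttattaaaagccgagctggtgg
Ltbp1, chr17:75178531-75178780, plus strand: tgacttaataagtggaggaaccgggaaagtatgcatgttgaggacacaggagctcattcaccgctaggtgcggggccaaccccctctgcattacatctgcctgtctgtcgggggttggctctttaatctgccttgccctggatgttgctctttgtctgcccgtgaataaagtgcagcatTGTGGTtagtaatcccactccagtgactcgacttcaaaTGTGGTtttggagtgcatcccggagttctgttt
Vpreb3, chr10:75948050-75948299, plus strand: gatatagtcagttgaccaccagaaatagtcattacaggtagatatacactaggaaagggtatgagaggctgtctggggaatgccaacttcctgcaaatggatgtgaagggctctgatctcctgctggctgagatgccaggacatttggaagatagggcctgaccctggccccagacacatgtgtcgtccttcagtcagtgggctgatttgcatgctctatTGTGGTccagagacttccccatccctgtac
In the Runx3 window the RUNX letters began 134 and 126 bases before the start, and the RBPJ letters 154 bases before it. The window of the other Runx3 start, further into the gene, had neither, and so had the windows of Foxa2 and Chad. Stra6, with 4 starts, and Ltbp1, with 2, held the RUNX letters before 1 start each.

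Chad, which encodes chondroadherin, a leucine-rich repeat protein of cartilage matrix, had the second largest ratio. It was at 171 CPM (155 to 188) in cluster 14, at 27.7 CPM in cluster 5 and at 3.23 CPM in the other cells together, a ratio of 52.9 (46.4 to 60.3). A Chad UMI was present in 58 of 67 cells (86.6%) and in 6.80% of the other cells, and cluster 14 held 44.2% of the Chad UMIs of the clustered DES cells. After thinning the shares were 25.4% and 1.05%, with 0.0264% in mesothelial cells. Chad lies at chr11:94565047-94569127 on the plus strand, inside the bounds of another leading gene, Acsf2, an acyl-CoA synthetase of the minus strand (chr11:94557102-94601871). Acsf2 was at 65.2 CPM against 5.09 CPM, a ratio of 12.8 (10.7 to 15.2). Whether the counting used strand is not given in the sources used here, so that the division of reads between Chad and Acsf2 is uncertain.

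Col14a1, collagen XIV, was at 51.6 CPM against 2.80 CPM (ratio 18.4), and DES mesothelial cells had 115 CPM of it. Ltbp1, which holds latent TGF-beta in the matrix, was at 179 CPM against 20.7 CPM (ratio 8.63), with a UMI in 60 of 67 cells. Stra6, the membrane receptor for retinol-binding protein, was at 53.6 CPM against 6.14 CPM (ratio 8.73). Ramp2, which partners the adrenomedullin receptor, was at 328 CPM against 34.3 CPM (ratio 9.54) and had a UMI in 65 of 67 cells. Ramp2 was nearly as high in cluster 5, at 268 CPM.

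Fmo2, a flavin-containing monooxygenase, was at 180 CPM against 17.1 CPM (ratio 10.6), although mesothelial cells had 1934 CPM. Cyp2f2, a cytochrome P450 of airway secretory cells, was at 62.3 CPM against 12.8 CPM (ratio 4.86), with 50.6 CPM in cluster 8. Gsta4, which is no leading gene and encodes a glutathione transferase that acts on products of lipid peroxidation, was at 444 CPM against 103 CPM (ratio 4.30) and was highest in cluster 14. Of 16 glutathione and antioxidant genes counted because they had at least 5 CPM over all clustered DES cells, 2 were 2-fold higher (Gsta4 and Gpx2) and 2 were 2-fold lower (Gstm7 and Gsto1). Over all 9669 genes with that level, 1.81% were 2-fold or more higher and 5.4% 2-fold or more lower, with a median ratio of 1.01.

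Ttc36, a tetratricopeptide repeat gene, was at 59.0 CPM against 4.38 CPM (ratio 13.5), with 44.0 CPM in cluster 5. Vpreb3, known as a partner of the pre-B cell receptor, was at 201 CPM against 37.9 CPM (ratio 5.30), with 151 CPM in cluster 5. Lypd2, a small surface protein of the Ly6 family, was the most abundant leading gene, at 840 CPM against 181 CPM (ratio 4.64), and had a UMI in all 67 cells. The transcript named RP23-37G19.2 was at 150 CPM against 8.45 CPM (ratio 17.7), and the clustered CO cells had 97.4 CPM. Map1b, a microtubule-associated protein (ratio 8.54), Ergic1, a protein of the secretory pathway (5.78), and Tnfaip2 (4.70) completed the group together with Ly6d, Krt14 and Krt5. Removing the cell with most UMIs of each gene left 18 of the 20 ratios within 1.5 times of their value. It lowered Ly6d, a surface protein of stratified epithelia, from 11.1 to 1.77 and Krt14 from 8.35 to 4.83.

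**Figure D2:**
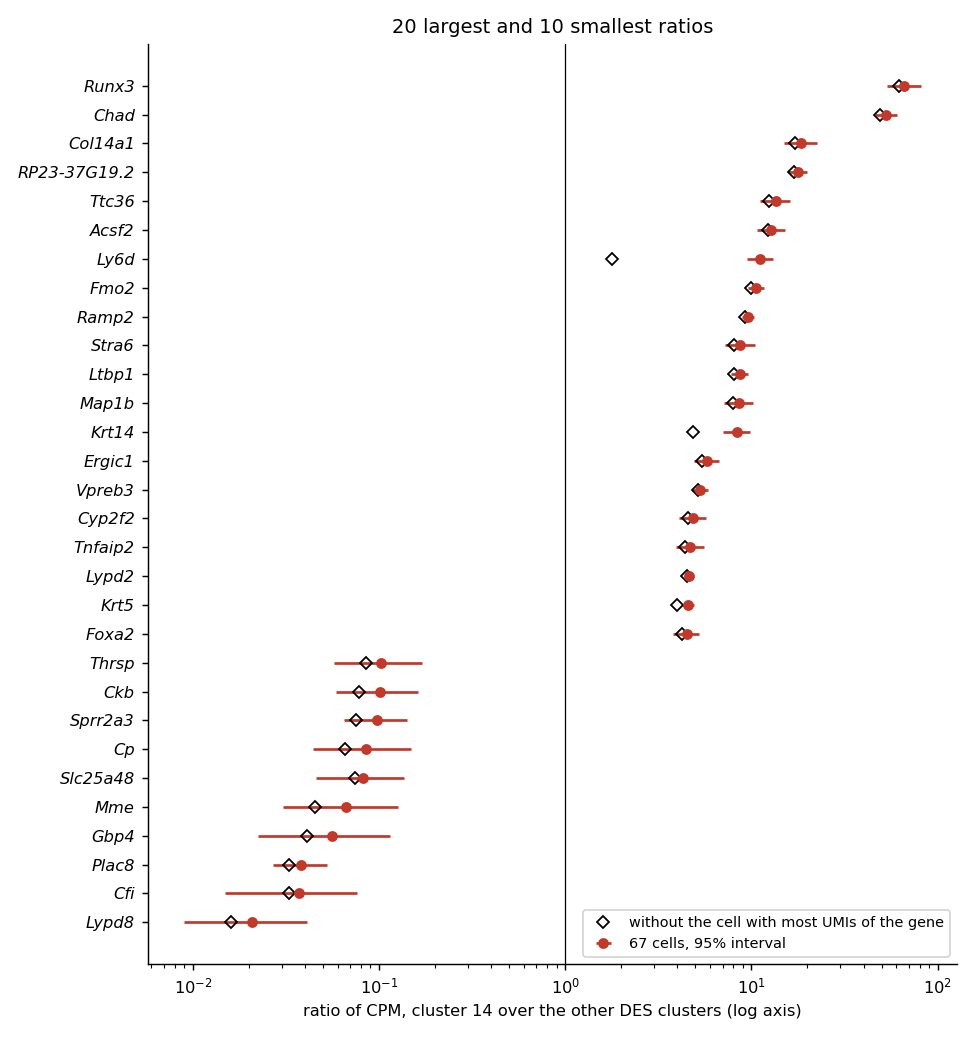
Ratios of CPM of cluster 14 over the other DES clusters, on a log axis, for the 20 largest and the 10 smallest ratios, with exact 95% intervals of counting error. Open diamonds leave out the cell with most UMIs of the gene. They lie close to the points except for Ly6d, which moved from 11.1 to 1.77, and Krt14, which moved from 8.35 to 4.83.

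Joint detection was counted for genes chosen because they were high in cluster 14, so that the shares are a description. Of Runx3, Chad, Col14a1 and the Notch target Hey1 at least 3 had a UMI in 37 of the 67 cells (55.2%, 42.6% to 67.4%) and in 26 of the 4541 other cells (0.573%, 0.374% to 0.838%). All 4 were present in 21 cells of cluster 14 and in 5 other cells. The 26 other cells lay mostly in clusters 9 (9 cells), 4 and 5 (5 cells each). At least 1 of the 4 was present in 64 cells of cluster 14. Runx3 and Chad occurred together in 53.7% of cluster 14 cells and in 0.793% of the others, and Foxa2 and Chad in 64.2% and 3.66%. Taken singly, Runx3 was found in 61.2%, Foxa2 in 71.6% and Chad in 86.6% of cluster 14 cells. These shares are of cells as deposited, without thinning.

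**Figure D3:**
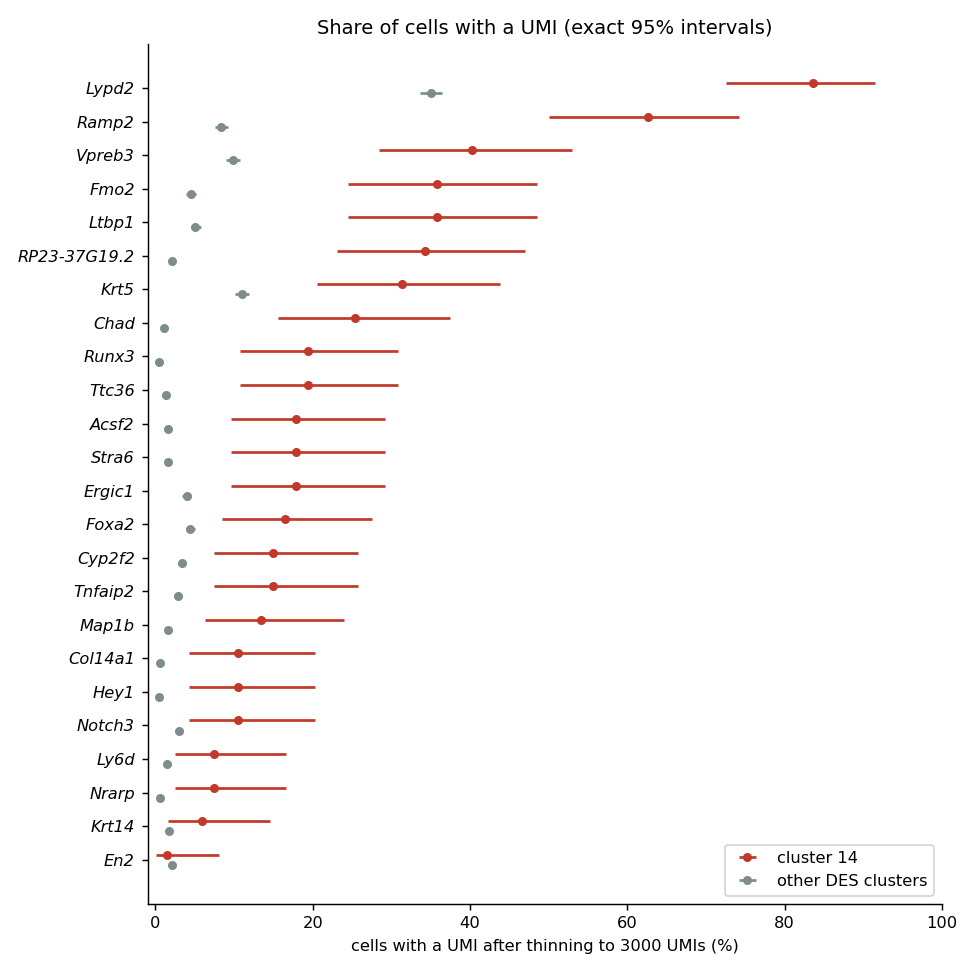
Share of cells with a UMI of the leading genes and of En2, Hey1, Nrarp and Notch3, in percent, after each cell was thinned to 3000 UMIs, with exact 95% intervals, in cluster 14 (67 cells, red) and the other DES clusters (4492 cells, grey). Lypd2 was at 83.6% in cluster 14 and 35.1% in the other clusters, and the shares of En2 overlap.

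In the Notch pathway, Hey1, Nrarp and Notch3 were highest in cluster 14. Notch receptors release an intracellular domain that, with RBPJ, activates targets such as Hes1, Hey1 and Nrarp. Hey1, a repressor of the hairy family, was at 48.7 CPM (40.3 to 58.3) in cluster 14 and at 1.48 CPM in the other cells, a ratio of 32.9 (26.2 to 41.2), and the next cluster had 6.21 CPM. Nrarp, a target that limits Notch signaling, was at 19.8 CPM (14.6 to 26.3) against 1.61 CPM (ratio 12.3), and Notch3, a receptor, at 39.6 CPM (32.1 to 48.4) against 9.41 CPM (ratio 4.21). The next cluster for both, number 5, had 8.34 and 20.2 CPM. Hes1 was at 267 CPM against 177 CPM (ratio 1.51) and was second to cluster 9, at 913 CPM. The receptors Notch1 (34.7 against 41.8 CPM) and Notch2 (56.1 against 39.3 CPM) and the ligand Jag1 (29.3 against 22.5 CPM) differed less than 2-fold. Of the 12 Notch genes, 5 had at least 5 CPM over all clustered DES cells. Notch3 was 2-fold higher and none was lower, with a median ratio of 1.43. Hey1 and Nrarp, at 2.18 and 1.88 CPM over all clustered DES cells, were not counted.

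In the Wnt pathway the differences ran in both directions. Ccnd1, cyclin D1, was at 251 CPM against 75.6 CPM (ratio 3.32) and was highest in cluster 14, and it was the only one of 11 counted Wnt targets and antagonists that was 2-fold higher, while the antagonist Kremen1 was lower (2.48 against 7.36 CPM). Among 12 counted receptors Fzd3 was higher (40.4 against 18.8 CPM), and Fzd6, Lgr4 and Ror2 were lower. The ligand Wnt5a was lowest in cluster 14 of all clusters, at 16.5 CPM against 38.4 CPM. Of 8 genes proposed to mark stem cells, 6 were counted. Ptn, the growth factor pleiotrophin, was at 1822 CPM against 486 CPM (ratio 3.75), with a UMI in all 67 cells and a lowest value of 608 CPM in any cell. En2 was also 2-fold higher, Gstm7 was lower (20.6 against 49.7 CPM), and Lgr5 was at 4.13 CPM against 3.37 CPM with overlapping error.

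Among 16 counted transcription factors of foregut and gland, Foxa2 and En2 were 2-fold higher and none was lower, with a median ratio of 1.12. Sox17, which acts with Foxa2 in the uterus, was lowest in cluster 14 of the 16 clusters, at 137 CPM against 216 CPM. Foxa1 and Foxa3 had no UMI in cluster 14. Sox2, a factor of foregut and basal cells, was below the counted level at 6.60 CPM against 0.0804 CPM, from 16 UMIs in 8 cells. Agr2, a folding factor of mucous cells, was the only higher gene of 8 counted mucous genes (49.5 against 23.6 CPM). Muc20, Tff1 and Clca1 were lower, and the median ratio of the 8 was 0.53. The summed level of all 21 mucous genes was 1464 CPM against 2866 CPM and ranked 14th of the 16 clusters. Of the 21, 7 had no UMI in cluster 14. Of the mucous genes below the counted level, Muc5ac, a gel-forming mucin, was at 9.90 CPM against 0.940 CPM with a UMI in 19 cells. Reg3g, an antimicrobial lectin also below that level, was at 21.5 CPM against 0.637 CPM with a UMI in 10 cells. A single cell held 22 of the 52 Reg3g UMIs, and without it the level was 12.9 CPM.

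Basal keratins were below their levels in basal cells. Of 7 counted basal genes 3 were 2-fold higher and 0 lower, with a median ratio of 0.94, so that most of the 7 were not raised. Krt5 was at 330 CPM against 72.1 CPM with a UMI in 43 cells, Krt14 at 64.8 CPM against 7.75 CPM with a UMI in 23 cells, and Krt15 at 23.9 CPM against 9.34 CPM with a UMI in 14 cells. Without the richest cell of each gene the ratio of Krt14 fell from 8.35 to 4.83 and that of Krt15 to 1.40. The 483 DES basal cells, which were defined by their Krt14 and Trp63 UMIs, had 1639 CPM of Krt5, 3314 CPM of Krt14 and 2505 CPM of Krt15. Trp63, the master factor of basal cells, had no UMI in cluster 14, and cells rich in it had been removed before clustering. The basal cells had 2.33 CPM of Runx3, 1.01 CPM of Chad, 3.74 CPM of Foxa2 and 5.26 CPM of Hey1.

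The smallest ratio was that of Lypd8, which holds bacteria off the gut epithelium. It was at 3.30 CPM against 158 CPM, 47.9-fold lower. Cfi, complement factor I, was at 2.89 CPM against 78.1 CPM, 27.0-fold lower, and Plac8 was at 15.3 CPM against 399 CPM, 26.1-fold lower. Gbp4, Mme, Slc25a48, Cp, Sprr2a3, Ckb and Thrsp were between 18.0-fold and 9.72-fold lower. Cluster 14 was the lowest of the 16 clusters for 8 of these 10 smallest ratios, the exceptions being Lypd8 and Gbp4. In cluster 8, Lypd8 and Gbp4 were at 2.17 and 2.67 CPM, so their low levels were not particular to cluster 14. For Mme, Thrsp, Cp and Sprr2a3 the next lowest cluster lay within the interval of cluster 14. Mme was at 3.71 CPM (1.70 to 7.05), beside 5.30 CPM in cluster 5. For Cfi, Plac8, Slc25a48 and Ckb the next lowest cluster lay above that interval.

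Several genes that answer to estrogen were lower. Of 8 counted estrogen-responsive genes 4 were 2-fold lower and none higher, with a median ratio of 0.56. The progesterone receptor gene Pgr was at 42.5 CPM against 97.4 CPM and lactotransferrin, Ltf, at 1029 CPM against 2374 CPM. Lipocalin 2, Lcn2, was at 556 CPM against 2688 CPM and complement C3 at 317 CPM against 943 CPM. Cluster 14 was lowest of the clusters in Pgr and Lcn2. The estrogen receptor gene Esr1 itself was level, at 219.5 CPM against 217.5 CPM. Of 6 counted genes of developing glands 3 were lower, among them the calcium-binding S100g (78.8 against 578 CPM), the secreted Prap1 (726.5 against 2497 CPM) and the sulfotransferase Sult1d1 (0.825 against 18.8 CPM, from 2 UMIs).

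Most counted genes of antigen presentation and of the interferon response were also lower. Of 6 counted genes of MHC class II antigen presentation 5 were 2-fold lower, with a median ratio of 0.16, although these genes vary widely among clusters and cluster 14 ranked 10th in their summed level. Cd74, the invariant chain, was at 75.5 CPM against 548 CPM. Of 8 counted interferon-stimulated genes 6 were lower, and of 4 counted CXC chemokines 3 were lower. Of 14 counted cell cycle genes 8 were 2-fold lower and none higher, but the other cells include cluster 6, with a summed level of 1066 CPM, and cluster 14 ranked 5th of the 16 clusters in the summed level. Mki67 was at 1.65 CPM against 8.17 CPM and Cenpf at 1.24 CPM against 18.4 CPM, and the highest cluster of both, number 6, had 42.1 and 107 CPM. Top2a was at 21.0 CPM against 31.5 CPM, the replication gene Mcm2 was at 32.6 CPM against 21.4 CPM, and neither differed 2-fold.

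The cells were not uniform. In the clustering of CO and DES epithelial cells together, 46 of the 67 fell into integrated cluster 10, 15 into integrated cluster 6, 4 into 3 and 2 into 16. Integrated cluster 10 also held 207 cells of DES cluster 5. Runx3 was at 89.4 CPM (76.6 to 104) in the 46 cells and at 15.2 CPM (4.14 to 38.9) in the 15 cells, and Ccnd1 at 269 CPM (246 to 293) and 122 CPM (83.2 to 172). Chad (185 and 103 CPM) also differed beyond counting error. Foxa2 (70.8 and 49.4 CPM) and Hey1 (50.6 and 38.0 CPM) had overlapping intervals. The 2 sets differed in depth, with median UMIs of 35280.5 and 15407, and the part of depth in these differences was not tested.

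Across the 2924 genes, the profile of cluster 14 on the log2(CPM + 1) scale was most like that of DES cluster 8 (Pearson r 0.930), followed by cluster 4 (0.925), cluster 3 (0.923) and cluster 12 (0.923), and least like cluster 1 (0.856). The CO clusters gave r from 0.742 to 0.810, with CO cluster 12 the highest. The r run over genes, which are not independent points. Of the 9669 genes with at least 5 CPM, cluster 14 was highest in 1067 (11.0%) and lowest in 970 (10.0%). The other clusters were highest in 205 (cluster 12) to 1232 genes (cluster 10), and clusters 13 and 15 in 1123 and 908. The part of cluster size and depth in these counts was not tested. In 22 genes cluster 14 was at least 2-fold above every other cluster, where the other clusters had 0 to 49 such genes. The 5 genes whose levels over the 16 clusters were most like those of Foxa2 were Col14a1 (r 0.87), Tmed2 (0.84), Sdhc (0.83), Wfdc15b (0.83) and Timp2 (0.82). Those most like En2 were Ssr3 (0.89), Tfg (0.81), Chd1 (0.77), Syne2 (0.76) and Cbx1 (0.75). Both sets were picked for their likeness from 2683 genes with at least 50 CPM in cluster 14. This filter admits genes such as Col14a1 only through cluster 14, where Foxa2 was also highest, so the r are descriptions.

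The sections gave a readout of the leading genes that the clustering had not used. The leading genes, and the genes with the smallest ratios, were picked by their levels in DES cells, and the genes in all were not. Picking genes for high levels in DES cells can by itself favor genes that are higher in DES. The shares of all genes given beside them are therefore no test, and the sections do not compare DES clusters with each other. The sections held 9117099 to 12506177 UMIs in 1357 to 1834 spots, and each spot can hold several cells. UMIs were summed over each section and DES was compared with CO over all 14098 genes that passed the filter. Of these, 376 (2.67%) were higher and 371 (2.63%) lower in DES (edgeR's quasi-likelihood test, Benjamini-Hochberg adjusted p below 0.05). All 20 leading genes were tested, and 10 were higher and 0 lower, with 17 at an unadjusted p below 0.05, as were 3438 of all 14098 genes. Both DES sections lay above both CO sections in 18 of the 20, as in 43.8% of all genes, and below them in 2, as in 17.9%. Their median log2 fold change was 2.27, against -0.01 over all genes tested. The p-values set the difference between conditions against a spread that edgeR shares over genes, estimated from 2 sections of each condition.

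Chad was at 3.28 and 1.54 CPM in the CO sections and at 112 and 135 CPM in the DES sections, a difference of 5.45 ± 0.42 on the log2 scale (SE, edgeR adjusted p = 0.018). Ttc36 was at 1.92 and 2.90 CPM in CO and 102 and 99.4 CPM in DES (5.18 ± 0.25, adjusted p = 0.014). Foxa2 was at 4.48 and 3.44 CPM in CO and 22.5 and 37.8 CPM in DES (2.72 ± 0.37, adjusted p = 0.031). In these 3 genes each DES section lay above both CO sections. Vpreb3, Lypd2, Stra6, Acsf2, Ramp2, Ltbp1 and Ergic1 also rose, with log2 fold changes between 1.33 and 6.13. The same 10 genes passed when the sums were limited to the 25% of spots richest in epithelial transcripts, where 4.29% of all genes were higher and 2.79% lower. The calls depended on the DES sections. Without DES replicate 1 only Ttc36 and Vpreb3 passed, and without DES replicate 2 none of the 20 did (edgeR's test, in which the lone section is assumed to vary like the CO sections), while 15 and 16 had an unadjusted p below 0.05, beside 1722 of 14657 and 1712 of 14708 genes in all. Leaving out either CO section raised the number of calls, among all genes as well as among the 20. The added calls among the 20 were not all in the higher direction.

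Runx3 was at 0.400 and 1.18 CPM in the CO sections and 12.1 and 6.28 CPM in the DES sections, and did not pass (3.33 ± 0.62, adjusted p = 0.055). It passed with DESeq2 (adjusted p = 0.00011), with no filter and when either CO section was left out. En2 was at 0.0800 and 0.181 CPM in CO and 3.40 and 13.6 CPM in DES (5.75 ± 1.05, adjusted p = 0.051). The DES sections lay above both CO sections in both genes. In epithelium-rich spots En2 passed, with an adjusted p of 0.044. Col14a1 and Map1b, by contrast, were lower in both DES sections than in either CO section and did not pass, with log2 fold changes of -0.95 ± 0.30 and -1.19 ± 0.22. In epithelium-rich spots the direction of this pair turned, to 1.204 and 0.77, and neither passed. Ptn was at 99.2 and 114 CPM in CO and 93.8 and 84.6 CPM in DES and did not pass (-0.47 ± 0.16, adjusted p = 0.17), but rose by 2.34 on the log2 scale in epithelium-rich spots (adjusted p = 0.049).

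The Notch genes Nrarp, Notch3 and Hes1 rose in the DES sections. Nrarp was at 2.80 and 3.63 CPM in CO and 54.0 and 42.0 CPM in DES (3.69 ± 0.24, adjusted p = 0.016). Notch3 was at 14.6 and 22.5 CPM in CO and 71.2 and 56.9 CPM in DES (1.58 ± 0.26, adjusted p = 0.040), and Hes1 at 67.7 and 60.1 CPM in CO and 220 and 226 CPM in DES (1.60 ± 0.17, adjusted p = 0.022). Hey1 was at 4.32 and 2.36 CPM in CO and 10.9 and 7.09 CPM in DES and did not pass (1.198 ± 0.43, adjusted p = 0.18). Runx1 and Gsta4, chosen after their values in cluster 14 were seen, rose with log2 fold changes of 3.57 ± 0.23 and 3.58 ± 0.24 (adjusted p = 0.016 and 0.017). Each of these 5 calls was lost when 1 of the sections was left out, with adjusted p up to 0.060 for Nrarp, Runx1 and Gsta4, 0.185 for Hes1 and 0.225 for Notch3.

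Of the 10 genes with the smallest ratios, 3 fell in the DES sections, where 2.63% of all genes fell. These were Cfi (70.2 and 50.8 CPM in CO, 11.7 and 11.1 CPM in DES, edgeR adjusted p = 0.021), Cp (adjusted p = 0.033) and Ckb (adjusted p = 0.028). Both DES sections lay below both CO sections in 7 of the 10, and above them in Lypd8. In epithelium-rich spots Cp kept its call (adjusted p = 0.018), Cfi lost it (-2.92 on the log2 scale, adjusted p = 0.053), Plac8 gained one (adjusted p = 0.028), and Ckb was in the opposite direction (0.78) and did not pass. Leaving out 1 section raised the adjusted p to as much as 0.125 for Cfi, 0.194 for Cp and 0.195 for Ckb.

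A section sums all cell types, so fewer cells of a type and less RNA per cell cannot be told apart, and other DES clusters express several of these genes. Cluster 14 held 35.3% of the Chad UMIs of the whole DES library, 10.3% of those of Ttc36, 11.4% of those of Runx3 and 5.09% of those of Foxa2, with 0.839% of all UMIs. Markers of basal cells and of cluster 5 moved with the groups. Olfm4, highest in cluster 5, was at 0.400 and 2.18 CPM in the CO sections and 1534 and 1340 CPM in the DES sections (edgeR adjusted p = 0.018). Cluster 5 had 44.0 CPM of Ttc36, 268 CPM of Ramp2, 151 CPM of Vpreb3 and 27.7 CPM of Chad. Trp63 was at 0.880 and 6.53 CPM in the CO sections and 75.7 and 63.6 CPM in the DES sections, and Krt5 at 0.800 and 93.4 CPM and at 5276 and 3562 CPM. In CO replicate 2, 68.3% of the UMIs of Krt5 and of Krt14 lay in a spot cluster of 17 of 1834 spots. Their levels there were 3580 and 2288 CPM, against 55.3 and 36.9 CPM in the next spot cluster. Trp63, Krt5, Krt14 and Ly6d did not pass, with adjusted p = 0.062, 0.142, 0.104 and 0.077. All 4 passed with DESeq2 (adjusted p = 1.9e-07, 0.025, 0.0050 and 0.0011), and Krt5, Krt14 and Ly6d also passed in edgeR when either CO section was left out. DES basal cells had 163 CPM of Ltbp1 and 40.5 CPM of Stra6 but 3.13 CPM of Ttc36 and 10.8 CPM of Vpreb3. The authors found stromal cells, pericytes and endothelial cells largely absent from the DES library, so the library shares do not cover all cells of a section. Ramp2 was highest in spot clusters that the authors named stroma in both CO sections (399 and 280 CPM) and in DES replicate 1 (430 CPM). In DES replicate 2 another spot cluster was highest (448 CPM). The part of stroma, of basal cells and of cluster 5 in the section differences was not tested.

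In the deposited spot clusters of the DES sections the order of levels was not tested, and several first places rest on few UMIs. The authors described the DES section labelled sample B as limited for identifying clusters. That section is DES replicate 2, so its spot clusters are less certain. In DES replicate 1, Chad was highest in a cluster of 332 of 1575 spots, at 195 CPM against 146.5 CPM in the next, and 66.2% of its UMIs lay there. Lypd2 (213 against 167 CPM), Nrarp (81.2 against 62.6 CPM) and Krt14 (7030 against 5437 CPM) were highest in the same cluster. Of their UMIs, 57.5%, 57.3% and 64.1% lay there. Foxa2 was highest there too, but close to the next cluster (30.8 against 25.9 CPM), as was Ttc36 (131 against 127 CPM). In DES replicate 2, Chad was highest in a cluster of 106 of 1357 spots, at 333 CPM against 173 CPM in the next. Foxa2 was highest in another, of 228 spots, at 58.7 CPM against 41.2 CPM in the next. The first places of Runx3, at 12 and 4 UMIs in the 2 sections, and of Hey1 in DES replicate 2, at 2 UMIs, are too thin to place these genes.

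**Figure D4:**
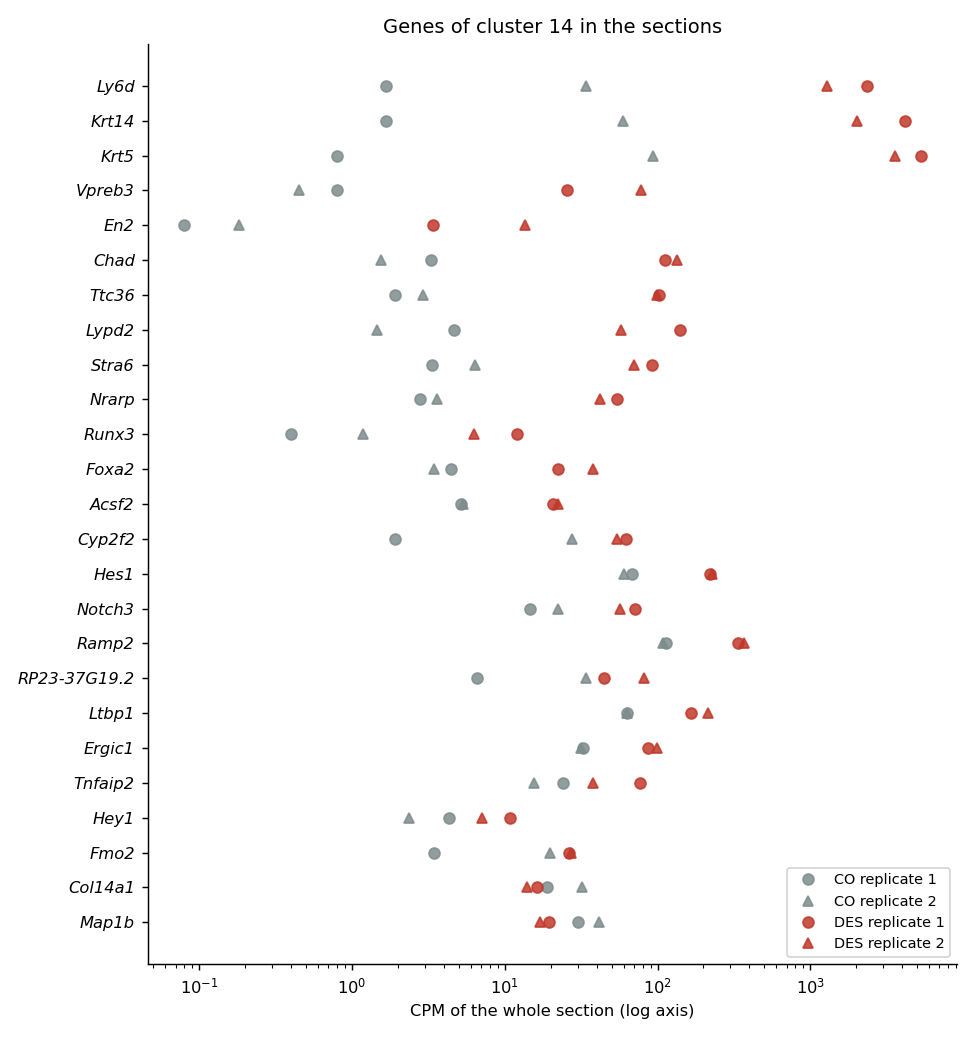
Levels of the 20 leading genes and of En2, Hey1, Nrarp, Notch3 and Hes1 in the 2 CO sections (grey) and 2 DES sections (red), in CPM of the whole section on a log axis, ordered by log2 fold change. Both DES sections lie to the right of both CO sections for every gene shown except Col14a1 and Map1b at the foot.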

How the data were processed

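The deposited single-cell counts are UMIs per gene and cell, which the authors counted with Cell Ranger 3.0.1 on mm10 with GENCODE genes, after bcl2fastq 2.20.0.422, and the spatial counts are UMIs per gene and spot from Space Ranger 1.2.2. None is normalized. Doublets had been removed by the authors with scran and barcode swapping examined with DropletUtils, and the clusters are those they deposited. No doublet caller was run again. Sequencing saturation, a fraction per cell in the deposited metadata, was not used for a result. Of 4610 clustered DES cells in the metadata 2 had no column of counts, none of cluster 14.

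UMIs were summed per cluster and scaled to CPM (counts per 1000000), with exact Poisson intervals, exact conditional intervals of ratios and exact Clopper-Pearson intervals of shares, all at 95% and covering counting error only. For a ratio with a group at 0, 3 UMIs over the group were the floor. Shares were also computed after thinning to 3000 UMIs (seed 20231). With 1 library, no test between clusters was made. The genes named were the 20 largest and 10 smallest ratios among genes with at least 50 CPM in cluster 14 or the other clustered cells, Foxa2, En2 and a few study genes, and members of 35 lists, counted where a gene had at least 5 CPM over all clustered DES cells. The 10 genes with the largest ratio to the second highest cluster, 9 of which were among the 20 and the other Kcnq1, were also taken by rule. The members and lists were chosen with earlier results of these data known.

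Sections were tested with edgeR 4.0.16 (TMM, filterByExpr, quasi-likelihood test, Benjamini-Hochberg), with SE taken as the log2 fold change over the square root of F, and DESeq2 1.42.0 was an alternative. Each section is 1 mouse. An exact permutation test of 2 against 2 cannot go below p = 0.333, so that these p-values rest on the spread that edgeR shares over genes. Scripts were tested on simulated data. Gene positions are from GENCODE M21 on GRCm38, the same assembly as mm10, and promoter windows from RefSeq on GRCm38.p6. A gene of these lists is not reported here.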

Additional observations from a re-analysis of the deposited data

How the results depend on the processing

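The ratios of Foxa2 and En2 stayed above 1 in every alternative run, with ranges of 4.26 to 5.89 and 1.76 to 2.53. Against the median of the other 15 clusters the Foxa2 ratio was 5.89. The alternatives without each gene's richest cell, in integrated cluster 10 only and without the barcode shared with the CO library were chosen after seeing the data. The number of genes past 2-fold (179) was 378 at 20 CPM (159 higher, 219 lower) and 2440 with no filter (1402 higher, 1038 lower), and the cause was not tested. The share of cells with a UMI follows depth. It was 29.9% for Foxa2 at 5000 UMIs, and without thinning it was 71.6% for Foxa2 and 29.9% for En2.

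DESeq2 called 1791 genes between the sections, 822 of them higher, against 747 and 376 by edgeR, and 16 leading genes, 15 of them higher, against 10. Leaving out 1 section each gave 3 to 2819 genes, 3 to 1311 of them higher, and 0 to 18 leading genes, 0 to 17 of them higher. The replicate number as a block gave 527 genes, 298 of them higher, and 7 leading genes, all of them higher. Ramp2, Ltbp1, Ergic1, Notch3 and Ckb lost their call there. Map1b was called lower with DESeq2, with DESeq2's size factors, with no filter and when either CO section was left out, and En2 was called higher with DESeq2, with its size factors, with the block and in epithelium-rich spots. Deviations of same-numbered sections had a correlation of -0.01 over genes. With 2 sections a condition the deviations mirror each other, so this value does not tell whether same-numbered sections were handled together. Both sections of replicate 2 carry the label sample B. The 2 sections a condition and the 67 cells of 1 library limit the precision of every value.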
